A study of Mus musculus with 2 samples.

Results

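Dlx6os1, Irx3os and Lhx1os are noncoding genes transcribed from the strand opposite to Dlx6, Irx3 and Lhx1, each a homeobox gene that encodes a transcription factor. They were examined in a pooled list of transcripts from mouse embryonic stem cells. The members were all lines of the list, on either strand, that overlapped the mm9 windows chr6:6765000-6825000 (Dlx6os1), chr8:94315000-94335000 (Irx3os) or chr11:84320000-84380000 (Lhx1os), and these windows were chosen by where lines of the list itself lie, so the presence of lines in them is no finding. They numbered 29 of 110003 lines, with 17 lines at Dlx6os1, 5 at Irx3os and 7 at Lhx1os. RNA came from V6.5 cells, a pluripotent mouse line kept on irradiated mouse embryonic fibroblasts, and went into 1 library of polyadenylated RNA and 1 library of total RNA depleted of ribosomal content. The list does not say which library a transcript came from, or whether every line came from these libraries. It holds no read count, so no level, no depth and no comparison between the libraries can be given. Each value below is a position, a length or a count of lines in this 1 list, with no error between cultures.

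Homeobox genes encode transcription factors that bind DNA through a homeodomain and set regional identity in the embryo. Dlx5 and Dlx6 act in the ventral forebrain, the branchial arches and the limb. Dlx6os1, also known as Evf2, is transcribed from the region that holds enhancers of this gene pair, and its RNA is known to take part in the control of Dlx5 and Dlx6 in developing interneurons. Irx3 belongs to the Iroquois family and acts in the neural tube and the heart. Lhx1 is a LIM homeobox gene needed for head formation and for the kidney.

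Of the 29 lines, 15 had more than 1 exon and 14 were unspliced, where blocks less than 30 bp apart count as 1 exon. Names starting with U made up 19 lines, names starting with FT 9 and names starting with BROAD 1, and no line had a WHITEHEAD name. No source used here explains these prefixes. Each gene was recognised by its exon structure in GENCODE release M21 (build GRCm38), and no coordinate was carried from one build to the other. Of the 15 spliced lines, 14 were assigned to the 3 genes (7 to Dlx6os1, 3 to Irx3os and 4 to Lhx1os). At every gene the splice sites shared with the annotation (4 at Dlx6os1, 7 at Irx3os and 9 at Lhx1os) kept the same spacing in both builds. These sites belong to introns of equal length in both, so only the spacing between different introns could have differed. Ends and neighbours were compared by their distance from a splice site that all assigned transcripts of a gene share. This takes the spacing to hold beyond the shared sites, which was not tested.

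Dlx6os1 had 3 alternative first exons joined to the same last exon. All 7 transcripts were on the minus strand of chromosome 6, had 2 exons, and spliced into the acceptor whose first exon base is mm9 position 6774567. The 3 introns were 44741, 36957 and 6080 bp long, and each length is listed on this chromosome and strand under Dlx6os1 alone. Because no transcript had 2 introns, the stricter match by a run of intron, exon and intron lengths named none of them. In the whole pool, that match named 57.3% of transcripts with 3 or more exons, and an intron length listed under 1 gene named 26.6% of transcripts with 2 exons. The bases around each exon junction are shown because they differ before the junction and are identical after it. They come from the annotated transcripts with these introns, 15 bases are given on either side, and capitals mark the bases of the shared last exon.
44741 bp intron: ggaacggggatattgAACCAGAGAGAAACC
36957 bp intron: aggcccagccaccagAACCAGAGAGAAACC
6080 bp intron: ctttggggctttatgAACCAGAGAGAAACC

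The outermost first exon of Dlx6os1 was 225 nt long (mm9 6819309 to 6819533) and was present in U027032-2 and FT310366, which had the same 5′ end. The middle first exon ended at mm9 position 6811525 and was present in 4 transcripts. Its length was 132 nt in U027032-1, 124 nt in FT310071, 83 nt in FT320243 and 66 nt in FT313443, so that the donor was fixed and the 5′ ends spread over 66 bp. The innermost first exon, of 144 nt, was present in U027032-3 alone (5′ end at 6780791). These 3 start regions lay 7877 bp (outer to middle) and 30799 bp (middle to inner) apart. In all there were 6 distinct 5′ ends, which fell to 3 when ends within 50 bp were counted as 1.

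The last exon of Dlx6os1 was long and ended at 6 different positions. It measured 4378 nt in U027032-1 and U027032-2, 4376 nt in FT313443, 4022 nt in FT310366, 4003 nt in FT320243, 2511 nt in FT310071 and 380 nt in U027032-3. The longest form exceeded 99.7% of the last exons of the 32887 spliced transcripts of the pool, whose median was 310 nt. Exonic length ranged from 524 to 4603 nt, and the gene spanned 49344 bp (6770190 to 6819533), of which 9.89% was exonic. The introns of 36957 and 44741 bp were longer than 95.7% and 96.6% of the 40062 distinct introns of the pool, whose median was 1379 bp.

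Against the annotation, the pool held each of the 3 Dlx6os1 last introns but did not reach the outermost annotated exon. U027032-3 had the exon and intron lengths of ENSMUST00000210702 in full. FT313443 ended 1 bp from the annotated 5′ end of ENSMUST00000159827, and the longest last exons ended 1 bp from its 3′ end. ENSMUST00000159568 has a further first exon of 104 nt, and its 5′ end lay 2059 bp upstream of the outermost 5′ end in the pool. U027032-2 and FT310366 began inside its second exon, of which they held the last 225 nt. The RefSeq start of Dlx6os1 at GRCm38 position 6869533 lay at the same distance from the shared acceptor as that pool start, a difference of 0 bp, and the other RefSeq start lay 27 bp from the nearest pool 5′ end.

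The pool start at the outermost exon lay beyond Dlx6 and the middle start lay in front of it. Dlx6 is annotated on the plus strand of GRCm38 chromosome 6 (6863334 to 6868568), and the 44741 bp intron enclosed it with 740 bp between the end of Dlx6 and the outermost pool exon. U027032-2 and FT310366 thus spanned the whole gene on the opposite strand and shared 0 exon bases with it. The 4 transcripts with the middle first exon began 1678 to 1744 bp upstream of the outermost annotated start of Dlx6, facing away from it. U027032-3 began 32543 bp upstream. Dlx5 is annotated on the same strand as Dlx6os1, with its start 10493 bp from the annotated span of Dlx6os1, and Sdhaf3 on the other strand at 84412 bp.

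**Figure D1:**
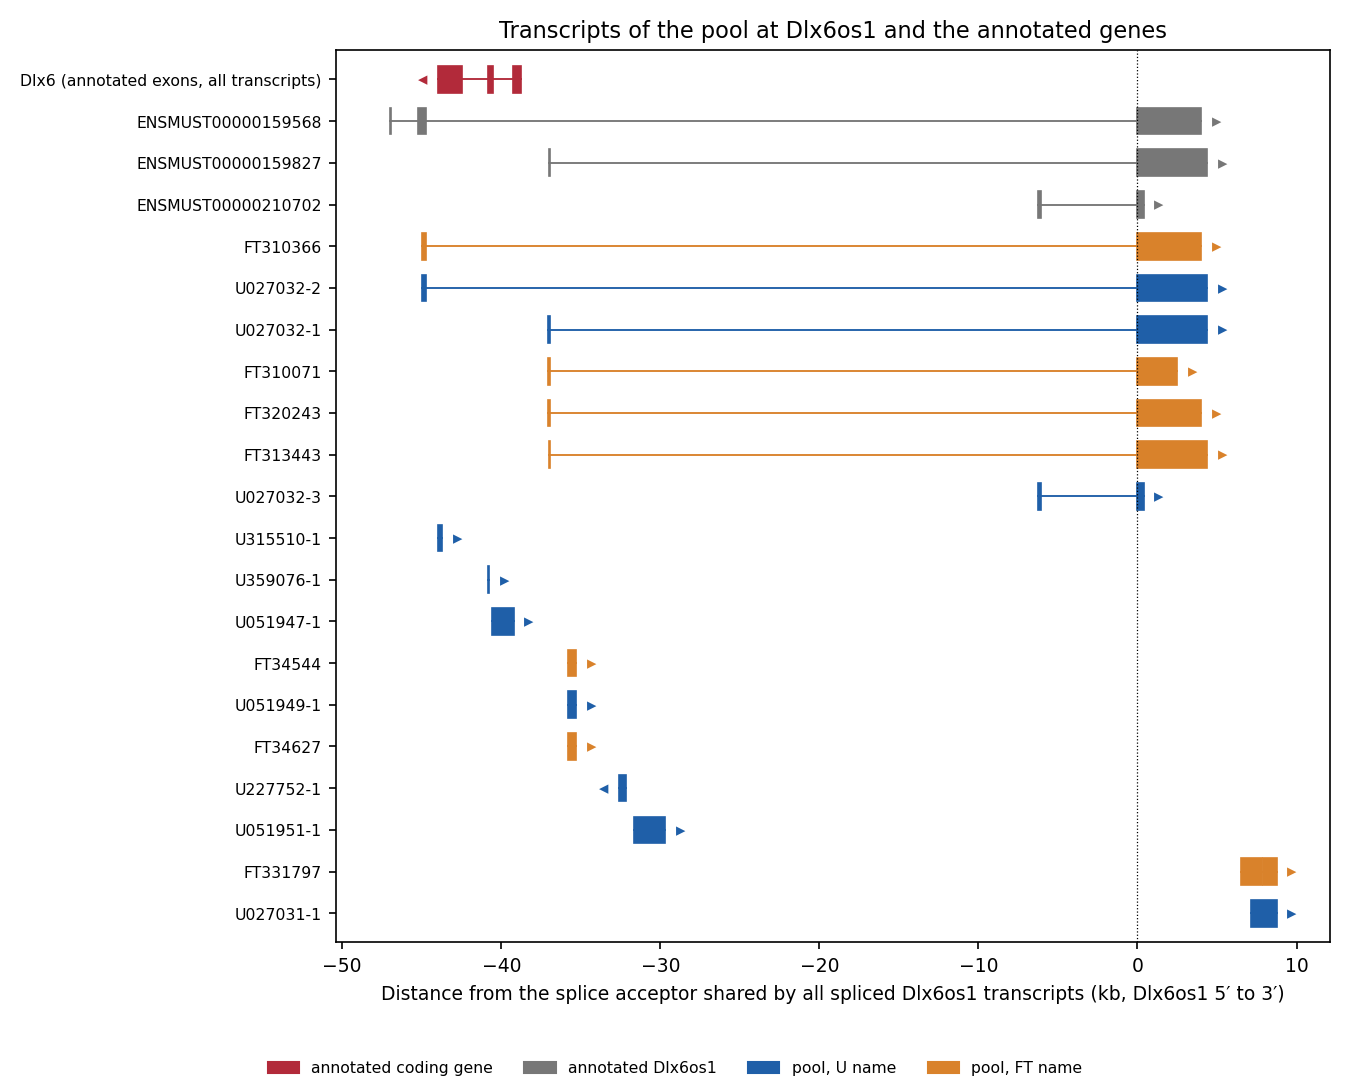
Exon maps of the annotated Dlx6 gene, annotated Dlx6os1 transcripts and the 17 pool lines at Dlx6os1, with the horizontal axis giving distance in kb from the shared splice acceptor, 5′ to 3′ for Dlx6os1. Boxes are exons, lines are introns, arrowheads give the direction of transcription and colours give the name prefix. The 7 spliced transcripts enter the same last exon from 3 first exons, most unspliced lines sit inside the long introns, and the 88 bp intron of FT331797 is too short to see at this scale.

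Inside the introns of Dlx6os1 lay 8 unspliced lines, 7 of them on the strand of the gene. Across the pool, 67.4% of the 8614 unspliced lines that lie inside introns of 1 strand were on the strand of their host. U051947-1 (6813797 to 6815150, 1354 nt) had both ends at the distances of annotated Dlx6os2, an unspliced gene antisense to Dlx6, and 104 of its bases lay opposite Dlx6 exons. U359076-1 (111 nt) and U315510-1 (306 nt) lay wholly opposite Dlx6 exons. The 5′ end of U315510-1 lay at the same distance from the shared acceptor as the annotated 3′ end of Dlx6, and the origin of these lines was not tested. U051951-1 (2009 nt) fell wholly within the annotated gene Gm44094. U051949-1, FT34544 and FT34627 covered nearly the same stretch, with lengths of 547, 530 and 529 nt and 5′ ends at 6810384 or 6810383. The plus-strand line, U227752-1 (386 nt), lay wholly outside annotated Dlx6, upstream of its start.

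Downstream of the Dlx6os1 transcripts, U027031-1 (1627 nt, unspliced) and FT331797 (exons of 1319 and 823 nt, 88 bp intron) shared their 3′ end at 6765824. FT331797 was deposited as 6 blocks and was the spliced line that was not assigned. No annotated Dlx6os1 intron is 88 bp long, and FT331797 shared no splice site with the assigned transcripts. Its 5′ end lay 2137 bp below the lowest base of the Dlx6os1 transcripts, and no exon base was shared with them. The nearest line outside the window, U297577-1 on the plus strand, ended 685 bp below its lower edge, and U027031-1 began 824 bp inside it.

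The sequence in front of the outermost pool start of Dlx6os1 was rich in A and T. The RefSeq promoter window of this start (GRCm38.p6, chr6:6869484-6869783, minus strand), 250 bases before to 50 bases after the start, is printed because the pool start coincides with it, with capitals for the 50 bases from the start.
Dlx6os1 promoter: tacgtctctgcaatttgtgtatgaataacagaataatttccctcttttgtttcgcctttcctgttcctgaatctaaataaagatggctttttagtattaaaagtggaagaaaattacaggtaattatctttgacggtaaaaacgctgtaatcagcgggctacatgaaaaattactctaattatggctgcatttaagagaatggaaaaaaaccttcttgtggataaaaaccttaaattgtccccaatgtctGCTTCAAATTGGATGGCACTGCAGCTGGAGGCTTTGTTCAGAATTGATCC
Its GC content was 35.7%, lower than in all but 4.3% of the 32851 RefSeq promoter windows (median 52.7%), and it held 5 CpG against a median of 7. The whole window lies inside the second exon of annotated ENSMUST00000159568, whose 5′ end lay 2059 bp upstream of the pool start, so these values also describe an annotated exon. The motif TAATTA, a core that many homeodomains bind, was found 2 times in this window and 1 time in the window of the other Dlx6os1 start, searched on both strands, and was present in 5.29% of all windows. CCAAT on either strand was found 2 times, with 37.4% of all windows holding it. TATAAA was found 0 times here and 2 times in the window of the other start, with 13.6% of all windows holding it. The shares over all windows were not matched for GC content, which was 35.7% here and 35.3% in the window of the other start. A match is a description of letters and not a binding site.

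Irx3os had 3 spliced transcripts that shared an acceptor and differed in their start, their donors and their end. All were on the plus strand of chromosome 8 and entered the exon whose first base is mm9 position 94327712. U009634-1 (94324314 to 94331438) had exons of 124, 223, 402 and 2241 nt and introns of 3274, 406 and 455 bp. These lengths equal those of ENSMUST00000133337 in full, with both ends at a difference of 0 bp. It was the transcript matched by runs of intron, exon and intron lengths.

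U009634-2 (94326074 to 94328742) had exons of 129, 415 and 402 nt and was recognised by its first intron of 1509 bp. Its 5′ end coincided with that of ENSMUST00000133528, but its second intron was 214 bp long where the annotation has 216 bp. The pool donor lay 4 bases before the annotated donor and the pool acceptor 6 bases before the annotated acceptor. The 3′ end of U009634-2 fell on the last base of exon 3 of U009634-1, which is a splice donor in that transcript. BROAD59716 (94324064 to 94328237) had exons of 386 and 526 nt. It began 250 bp before U009634-1 and used a donor 12 bp further downstream, which gave an intron of 3262 bp that is not annotated for Irx3os, and it was assigned by the shared acceptor.

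The junction sequences of Irx3os show the shared and the differing splice sites. They come from annotated transcripts, 15 bases are given on either side of the junction, and capitals mark the bases after it. The first 3 are the junctions of U009634-1 in order. The next joins the exon bases that U009634-2 uses at its second intron, and the last is the annotated form of that junction.
U009634-1 junction 1: gcgttggcgaaccagAAGGGAAAGAAAAAC
U009634-1 junction 2: aacctctagacccagGCACAGTGCACAAAG
U009634-1 junction 3: cagctggggttacagCAGCCACACGGACTT
U009634-2 junction 2: cctcaacaagaccagGCACAGTGCACAAAG
ENSMUST00000133528 junction 2: aacaagaccaggccaTGCACAAAGCGCTCG
U009634-1 and U009634-2 thus enter exon 3 at the same base from different donors.

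The starts of Irx3os lay on both sides of the annotated start of Irx3. Irx3 is annotated on the minus strand of GRCm38 chromosome 8 (91798525 to 91802067). BROAD59716 and U009634-1 began 1902 and 1652 bp inside the gene, counted from its outermost start, and their first exons lay wholly opposite Irx3 exons, with 386 and 124 shared bases. U009634-2 began 108 bp upstream of that start, facing away from Irx3, and shared no base with its exons. The RefSeq start of Irx3 lay 521 bp from the 5′ end of U009634-2. No assigned transcript had a 5′ end at the RefSeq start of Irx3os, from which the nearest 5′ end of an assigned transcript was 1161 bp away. The unspliced line U202491-1, on the same strand, began closer to that RefSeq start and ran across it.

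**Figure D2:**
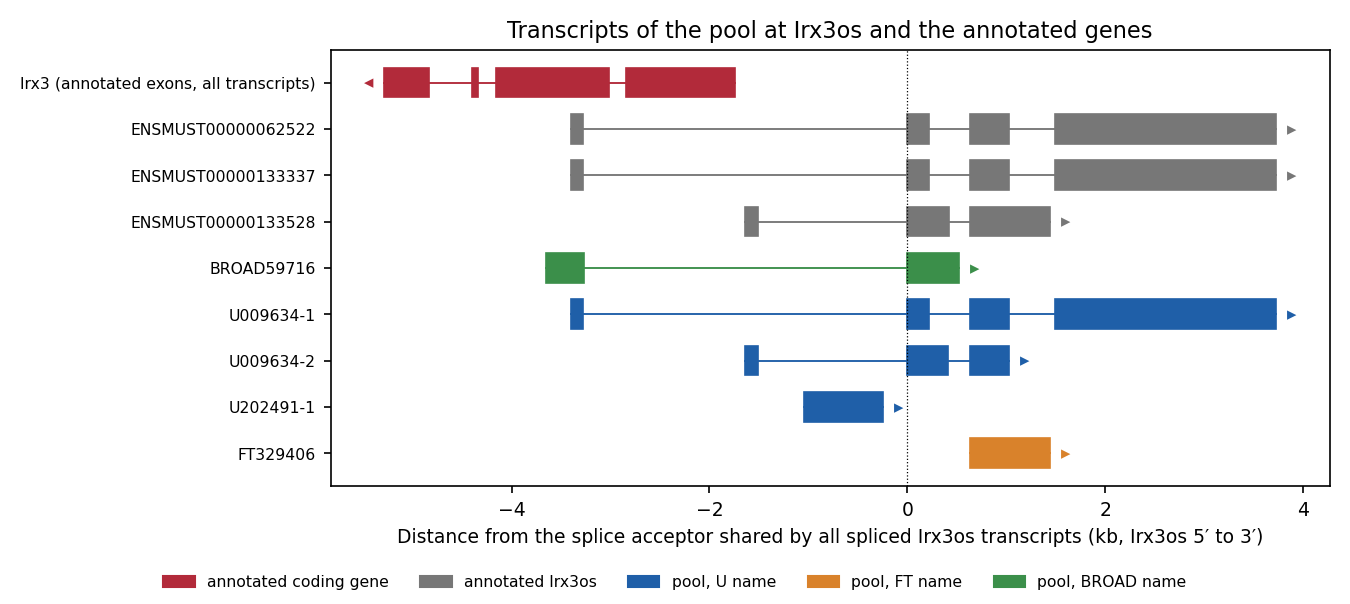
Exon maps of annotated Irx3, annotated Irx3os transcripts and the 5 pool lines at Irx3os, by distance in kb from the shared acceptor, 5′ to 3′ for Irx3os. Boxes are exons, arrowheads give the direction and colours the name prefix. BROAD59716 and U009634-1 begin opposite Irx3 exons, and U009634-2 begins just outside Irx3.

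The Irx3os transcripts spanned 7375 bp (94324064 to 94331438) with 3684 exonic bases, and had exonic lengths of 912 to 2990 nt. The last exon of 2241 nt was longer than 94.4% of the last exons of spliced pool transcripts. Of the unspliced lines, U202491-1 (800 nt) lay inside an intron on the strand of the gene. FT329406 (810 nt) began 2 bases after the start of exon 3 of U009634-1 and ended at the same distance from the shared acceptor as ENSMUST00000133528, a difference of 0 bp. All 5 lines of the window were on the plus strand, so no line was found on the strand of Irx3. Just outside the window, U295439-1 began 442 bp above its upper edge.

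Lhx1os had 4 transcripts with clustered starts, a shared first donor and alternative exons in the middle. All were on the plus strand of chromosome 11 and were matched by runs of intron, exon and intron lengths. Their 5′ ends were at 84339162 (U013110-1), 84339171 (U013110-2), 84339178 (U013110-3) and 84339186 (FT31964), a spread of 24 bp. They ended at 84349333 or 84349332. In the same order the exon lengths were 89, 81, 106 and 248 nt for U013110-1, then 80, 74, 81, 106 and 248 nt for U013110-2. They were 73, 181, 106 and 247 nt for U013110-3 and 65, 181, 106 and 247 nt for FT31964.

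The 4 transcripts carried 3 intron chains, made by an optional exon and by a choice of donor. U013110-2 included a 74 nt exon, which split the 8731 bp first intron of the other transcripts into introns of 7634 and 1023 bp. U013110-3 and FT31964 extended the 81 nt exon by 100 nt to 181 nt, which shortened the following intron from 555 to 455 bp. The last intron of 362 bp was present in all 4. Both variable stretches are printed from the annotated transcripts. In the first, capitals mark the optional exon between 15 bases of its neighbours, and in the second they mark the bases of the longer form.
Lhx1os optional exon: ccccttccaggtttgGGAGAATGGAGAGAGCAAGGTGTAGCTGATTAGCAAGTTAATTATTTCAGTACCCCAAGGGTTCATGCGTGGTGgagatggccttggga
Lhx1os longer exon: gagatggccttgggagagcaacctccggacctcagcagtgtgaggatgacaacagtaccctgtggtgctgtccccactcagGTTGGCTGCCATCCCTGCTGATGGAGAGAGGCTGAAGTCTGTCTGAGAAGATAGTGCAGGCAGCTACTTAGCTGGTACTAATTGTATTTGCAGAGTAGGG
U013110-1, U013110-2 and FT31964 had all exon and intron lengths of ENSMUST00000134800, ENSMUST00000126072 and ENSMUST00000128121, in that order, and U013110-3 differed from the last of these in its 5′ end alone.

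Lhx1os was the gene whose starts all lay just upstream of its coding partner. Lhx1, on the minus strand of GRCm38 chromosome 11 (84518284 to 84525535), has its outermost start 125 bp from the first Lhx1os start. The 4 pool starts lay 125, 134, 141 and 149 bp upstream of it, facing away from Lhx1. The next coding gene, Aatf, starts 12138 bp from the annotated span of Lhx1os. In RefSeq the starts of Lhx1os and Lhx1 are 126 bp apart, and the Lhx1os start lay at a difference of 0 bp from a pool 5′ end.

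The promoter window of Lhx1os (RefSeq, GRCm38.p6, chr11:84525410-84525709, plus strand) is printed because it holds the starts of both genes, with capitals for the 125 bases between them.
Lhx1os promoter: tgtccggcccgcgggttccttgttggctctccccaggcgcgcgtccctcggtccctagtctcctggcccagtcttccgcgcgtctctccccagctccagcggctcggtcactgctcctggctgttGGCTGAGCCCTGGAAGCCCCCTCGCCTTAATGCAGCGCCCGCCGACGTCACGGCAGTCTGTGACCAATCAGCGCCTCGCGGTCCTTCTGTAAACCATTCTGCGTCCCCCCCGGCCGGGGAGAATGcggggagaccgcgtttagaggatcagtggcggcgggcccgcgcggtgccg
Its GC content was 69.3%, above 89.5% of all windows, and it held 33 CpG, more than 91.4% of windows. CCAAT was found 1 time, searched on both strands. GGGCGG was found 0 times, against 35.7% of all windows that hold it, and the other motifs searched above were found 0 times too. The Dlx6os1 window, with 5 CpG, held more than 38.0% of windows and was near the median of 7, whereas the Lhx1os window held 33. The Irx3os window, at a start where no assigned transcript began, had a GC content of 53.0% and 6 CpG.

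**Figure D3:**
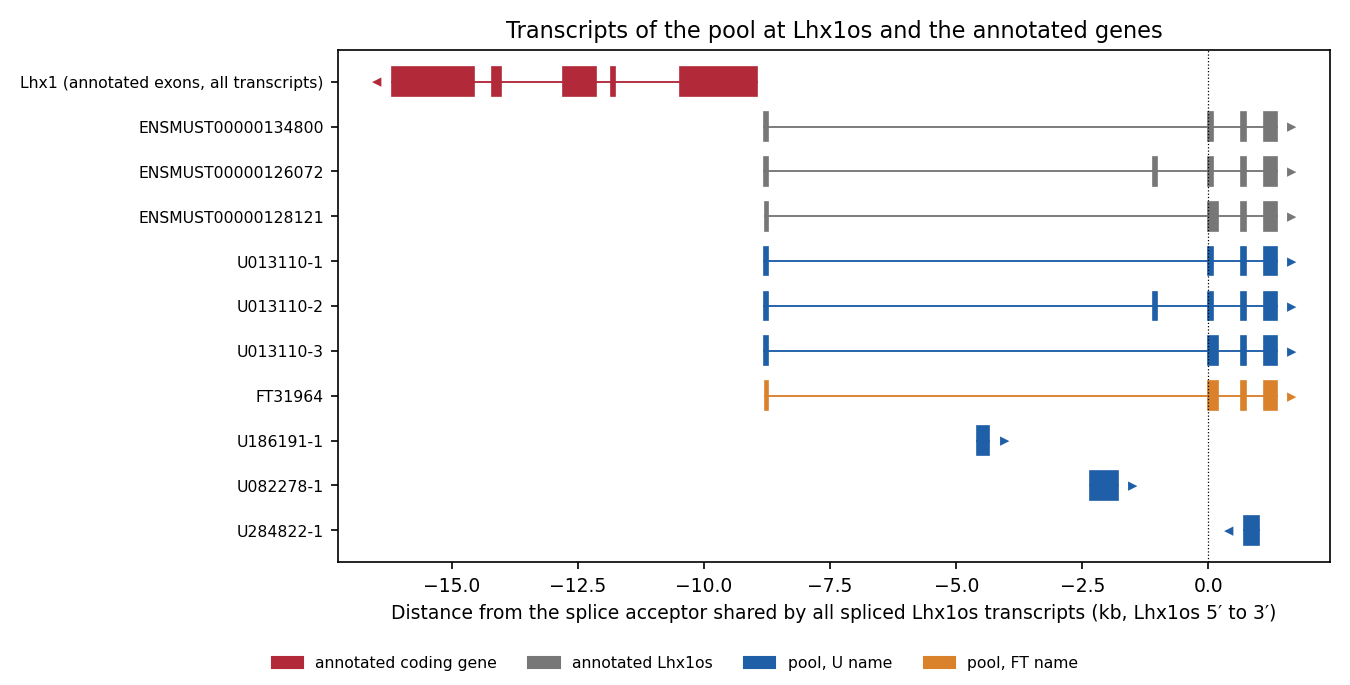
Exon maps of annotated Lhx1, annotated Lhx1os transcripts and the 7 pool lines at Lhx1os, by distance in kb from the shared acceptor, 5′ to 3′ for Lhx1os. Boxes are exons, arrowheads give the direction and colours the name prefix. The 4 spliced transcripts begin within 24 bp of each other, next to the start of Lhx1, and differ at the optional 74 nt exon and at the exon that is 81 or 181 nt long.

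The Lhx1os transcripts were shorter than the pool median, and their 3′ ends carried a polyadenylation motif. They spanned 10172 bp, of which 6.86% was exonic. Their exonic lengths were 524 to 607 nt, against a median of 733 nt for spliced transcripts of the pool. The longest exceeded 41.5% of those, so the lengths were not extreme. AATAAA, the common polyadenylation signal, lay 16 bases before the annotated 3′ end that U013110-1 and U013110-2 share. The last 40 bases of that RNA are shown, with the motif in capitals.
Lhx1os 3′ end: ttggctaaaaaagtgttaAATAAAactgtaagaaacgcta
The last 50 bases of the annotated Irx3os transcripts and of ENSMUST00000159827 and ENSMUST00000210702 of Dlx6os1 held neither AATAAA nor its variant ATTAAA, and in ENSMUST00000159568 of Dlx6os1 AATAAA lay 44 bases before the end.

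Of the unspliced lines at Lhx1os, U186191-1 (256 nt) and U082278-1 (548 nt) lay inside the first intron on the strand of the gene. U284822-1 (299 nt, 84348685 to 84348983) was on the minus strand at the 3′ end and lay opposite 39 bases of exon 3 of U013110-1. It did not reach Lhx1. The next line of the pool at higher coordinates lay 137793 bp beyond Lhx1os, and the next at lower coordinates, U290026-1, ended 23896 bp before it, 4734 bp below the window.

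The longest introns were in Dlx6os1, and the range of Lhx1os intron lengths overlapped those of Dlx6os1 and Irx3os. Dlx6os1 had 3 distinct introns, all above the pool median of 1379 bp. Lhx1os had 6, of which the introns out of the first exon were 7634 and 8731 bp long (longer than 81.5% and 83.4% of pool introns) and the others 362 to 1023 bp. Irx3os had 6, from 214 to 3274 bp, of which the longest exceeded 67.8% of pool introns. This is a description of 15 introns, several of which share a splice site.

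**Figure D4:**
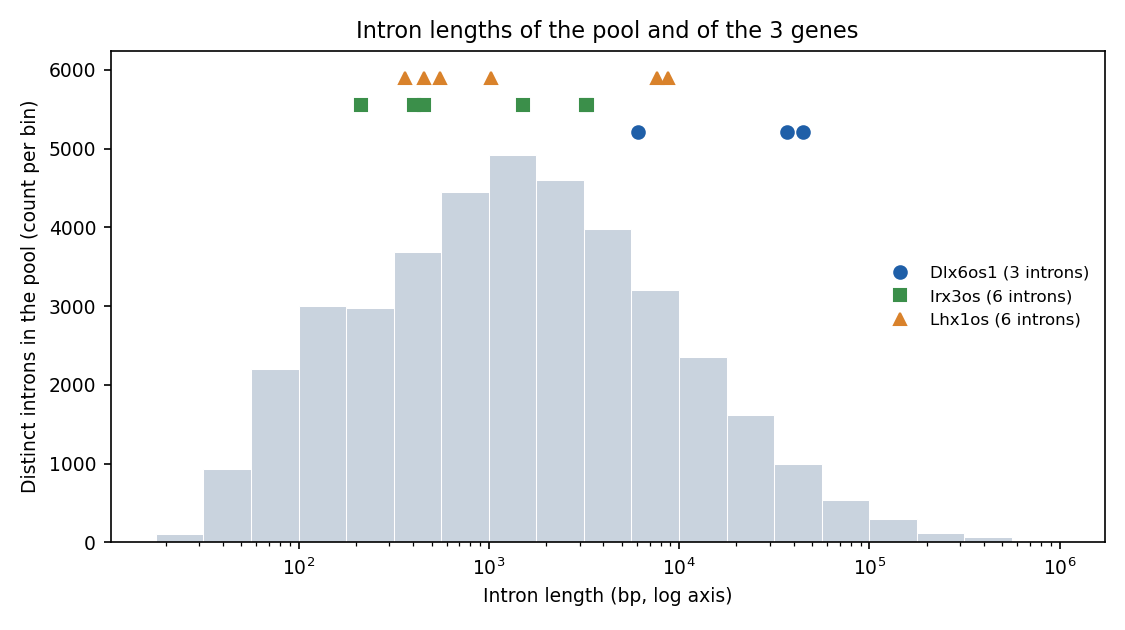
Histogram of the lengths of 40062 distinct introns of the pool (grey bars, count per bin, log axis in bp), with the introns of Dlx6os1 (circles), Irx3os (squares) and Lhx1os (triangles) marked above it at heights that have no meaning. The Dlx6os1 introns of 36957 and 44741 bp lie furthest to the right, the Dlx6os1 intron of 6080 bp lies to the left of the Lhx1os introns of 7634 and 8731 bp, and those of Irx3os reach down to 214 bp.

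The longest reading frames were those of Irx3os, while the ranges of Dlx6os1 and Lhx1os overlapped. In the annotated transcripts of Dlx6os1 the longest frame from ATG to a stop had 62 to 66 codons, and in those of Lhx1os 39 to 64, against a median of 62 over 9825 transcripts of annotated noncoding genes. Irx3os had 165 codons in ENSMUST00000133337, longer than in 97.2% of those transcripts. ENSMUST00000062522, which has the same exons except that it leaves out 2 bases (2988 against 2990 nt), had 258 codons. ENSMUST00000133528, whose 5′ end and first intron U009634-2 shares, had 106 codons, longer than in 86.4% of those transcripts. Whether any frame is translated cannot be read from these data.

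Of the 14 assigned transcripts, 5 had every exon and intron length of an annotated transcript. These were 4 of 8 with U names, 1 of 5 with FT names and 0 of 1 with a BROAD name. In the pool the share was 18.0% of 16725 spliced U transcripts, 50.9% of 5113 FT transcripts and 0% of BROAD and of WHITEHEAD transcripts. The genes were recognised by these lengths, so the counts describe the members and nothing is read from them. The U names of a gene shared their number: U027032 with 3 transcripts at Dlx6os1, U009634 with 2 at Irx3os and U013110 with 3 at Lhx1os. In the pool 3041 of 81887 U numbers (3.71%) had more than 1 transcript, and in 3037 of these all were on 1 chromosome and strand.

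The coding partners were not found. None of Dlx5, Dlx6, Sdhaf3, Irx3, Lhx1 and Aatf was matched by any pool transcript, although each could have been, and no line of the windows lay over one of them on its strand. For all protein-coding genes that could be matched the share found was 1.73%, so their absence says nothing about expression in these cells. Of markers, 0 of 8 matchable genes of embryonic stem cells, such as Pou5f1 and Nanog, and 0 of 8 of fibroblasts, such as Col1a1 and Vim, were matched, so neither the cell type nor RNA from the feeder cells could be checked. No assigned transcript had a line of the other strand with a facing 5′ end within 2 kb.

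Other noncoding RNAs next to homeobox genes were frequently found by the same match. From a list of 30 such names, 24 were annotated, 21 could be matched by runs and 18 were matched (85.7%), against 62.9% of the 5231 noncoding genes of the annotation with a run of their own. The list was drawn up with earlier results known and includes Irx3os and Lhx1os, and without the 3 genes described here the count was 16 of 18. Six3os1, beside the eye regulator Six3, had the most with 11 transcripts, followed by Pantr1 with 6, Hoxaas3 with 5, and Lhx1os, Hoxa11os, Evx1os and Dlx4os with 4 each. Otx2os1 had 3, and Dlx1as and Emx2os had 2 each. Irx3os had 1. Dlx6os1 had 0 by this match, as did Zeb2os and Hoxb3os. All matched transcripts of the 16 other genes had U or FT names: 11 genes had both and 4 had U names alone.

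**Figure D5:**
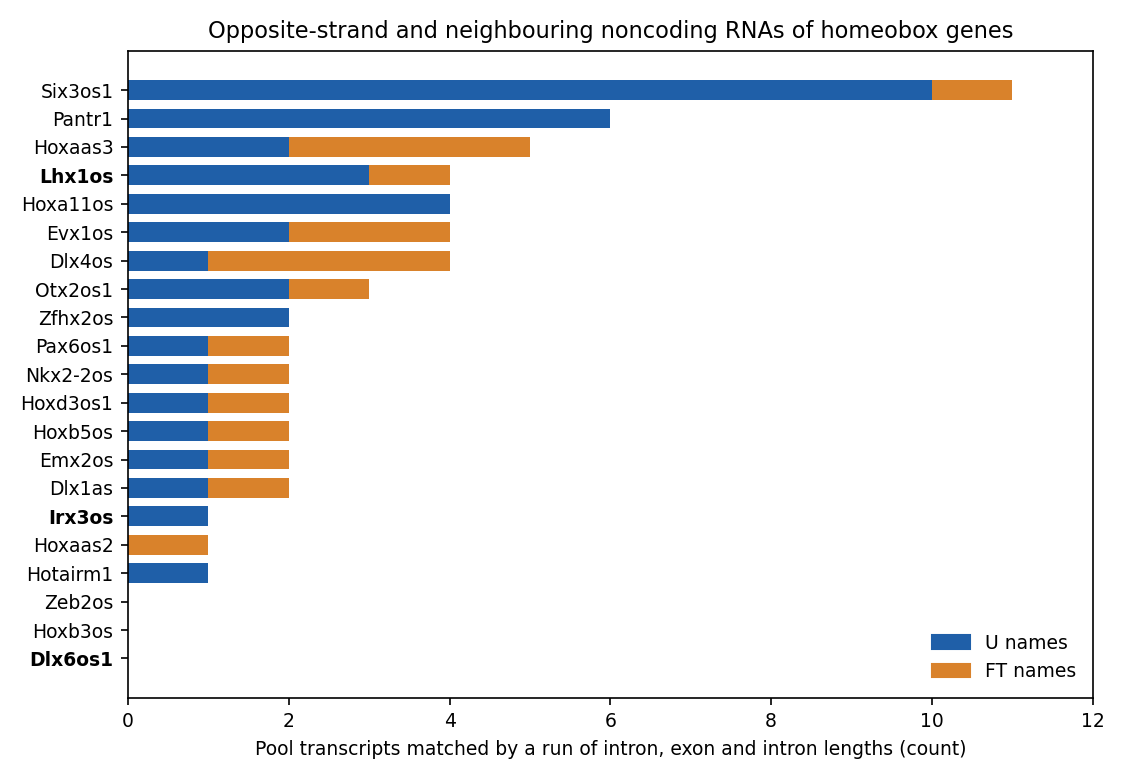
Number of pool transcripts matched by a run of intron, exon and intron lengths for each of the 21 listed noncoding RNAs of homeobox genes that could be matched (horizontal axis, count), with bars divided by name prefix and Dlx6os1, Irx3os and Lhx1os in bold. Lhx1os has 4, Irx3os has 1 and Dlx6os1 has 0, since its transcripts have 1 intron each.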

How the data were processed

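The deposited file is 1 BED list of transcripts on mm9, per the file headers, and the submitters' processing notes name TopHat. Per the labels' protocols, both libraries were strand-specific through dUTP. No source used here states the TopHat version, the assembly or the filters. The score column, deposited by the authors on scales that differ between name prefixes, was not used. Depth is unknown.

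Positions are printed counted from 1. Blocks less than 30 bp apart were treated as 1 exon. With Python 3.11.15 and numpy 2.4.6, runs of intron, exon and intron lengths were compared with those of GENCODE M21 genes of that chromosome and strand, and runs listed under 1 gene decided the match. Dlx6os1 transcripts have 1 intron, so a member was also recognised by an intron length listed under 1 gene, or by a splice site shared with such a transcript. The match by runs was tested on simulated data, made from annotated transcripts with 3 or more exons. Recognition by a single intron length or by a shared splice site, which Dlx6os1 rests on, was not tested in this way. RefSeq promoter windows and GENCODE transcript sequences were read from their tables by name, and promoter entries were found for Dlx6os1, Dlx6os2, Irx3os, Lhx1os, Irx3 and Lhx1.

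No test was run, since there is 1 library per group and 1 pooled list. The members and lists were chosen with earlier results of these data known. The naming rule took the 3 genes, their transcripts with 3 or more exons, coding genes with a start within 100 kb, and 10 matched genes of the homeobox list by number of transcripts. Ties there were broken by name, and the other lines and genes named were chosen after their values were seen. Alternatives changed block joining, windows, match tolerance, end clustering and name prefixes.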

Additional observations from a re-analysis of the deposited data

How the results depend on the processing

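Of 53 values under alternative settings for 19 counts and spans, 31 were within 1.5 times the reported count or equal to the reported span, and 22 were not. Leaving out U names had the widest effect: the lines fell from 17 to 7 at Dlx6os1, from 5 to 2 at Irx3os and from 7 to 1 at Lhx1os, and the spliced lines from 8 to 5, from 3 to 1 and from 4 to 1. Without U names, transcripts matched by runs were 0 for Irx3os and 1 for Lhx1os, intron chains were 1 for Irx3os and 1 for Lhx1os, and 5′ ends were 1 for Irx3os and 1 for Lhx1os. The spans without U names were 49342 bp for Dlx6os1, 4174 bp for Irx3os and 10147 bp for Lhx1os. Matching by intron lengths alone raised the transcripts from 0 to 7 for Dlx6os1 and from 1 to 2 for Irx3os, because it takes in transcripts with 2 exons and introns beside an unannotated exon. Allowing lengths to differ by up to 5 bp also gave 2 for Irx3os. With 5′ ends within 50 bp or within 200 bp counted as 1, Dlx6os1 had 3 start regions in place of 6 ends, and Lhx1os had 1 in place of 4. The homeobox list had 18 matched genes as reported, 19 with the 5 bp tolerance and 13 without U names. No paired analysis was possible because each group has 1 library and the list gives no value per library. With no read counts, the support behind each transcript is unknown.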
